A study of Homo sapiens with 12 samples.

Results

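The genes described here start blood clotting, restrain it, sense its proteases, or activate plasminogen at the surface of cells. They are F3, TFPI, TFPI2, THBD, PROCR, F2R, F2RL1, PLAU, PLAUR and PLAT, a named list of 10 of the 23228 genes in the count files. All 10 were present and all 10 passed the filter on low counts, which left 14874 genes in all. The members were selected on their counts in these same libraries, with the changes between the 4 treatment groups already known. Hence their values are given as a description, and the adjusted p-values beside them compare each change with the spread between libraries and are not independent evidence for the list.

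The cells were SUM149PT, a long-established line derived from an inflammatory breast carcinoma, and RNA was sequenced from 4 groups with 3 libraries each, lettered A, B and C. The combination group had the EZH2 inhibitor tazemetostat at 5 µM from day -5 and the AKT inhibitor ipatasertib at 5 µM for the last 24 h. The ipatasertib group had DMSO, the solvent, in place of the pretreatment and then 5 µM ipatasertib for 24 h. The tazemetostat group had 5 µM tazemetostat throughout, and the DMSO group had solvent only. Every group was passaged on day -3 and day -1, plated at 250000 cells per 6 cm dish and kept in medium with 2% serum for the last 24 h. Tazemetostat therefore acted for days and ipatasertib for 1 day, in 1 cell line, and nothing in the labels ties the replicate letters to separate cultures, so p-values measure a spread that may be technical.

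Tissue factor, encoded by F3, is the membrane receptor that binds factor VIIa and starts the clotting cascade that ends in thrombin. TFPI shuts that complex down, while thrombomodulin (THBD) and the endothelial protein C receptor (PROCR) turn thrombin toward activating protein C, an anticoagulant. Cells read the same proteases through protease-activated receptors, and they focus plasminogen activation at their surface by holding urokinase (PLAU) on its receptor (PLAUR), beside tissue-type plasminogen activator (PLAT). Carcinoma cells often express tissue factor and the urokinase system, which have been studied in invasion and thrombosis.

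Gene counts per library ran between 26024012 and 35417607 in the combination, 22355242 and 39001543 for ipatasertib, 43226082 and 49970540 for tazemetostat, and 32470808 and 44924160 for DMSO. Levels are in CPM, read counts relative to the TMM-scaled library size, and changes are log2 fold changes with a standard error (SE) from 1 edgeR quasi-likelihood fit of all 12 libraries, with p-values adjusted by Benjamini-Hochberg over all genes tested and a threshold of 0.05. Scaling by total counts alone moved the median of all genes by 0.14 in the combination, 0.12 with ipatasertib and 0.07 with tazemetostat, each against DMSO. Reads that fell in no annotated gene made up 23.8% ± 0.923 of the total (SD, n = 3) in the combination, 24.6% ± 0.961 with ipatasertib, 18.4% ± 0.501 with tazemetostat and 19.7% ± 0.764 under DMSO, so it moved with ipatasertib, and its part in the results was not tested. Combination B and tazemetostat A differed most from their replicates in a chi-square comparison of counts. All 8 epithelial markers were detected, including the keratins and EPCAM, with a summed level between 1825 and 1933 CPM in the combination, 1847 and 2012 CPM for ipatasertib, 2922 and 3231 CPM for tazemetostat, and 3428 and 3585 CPM for DMSO. In the combination KRT5 averaged 54.6 CPM against 633 under DMSO and KRT17 96.1 against 592, and CDH1, KRT8, KRT18 and KRT14 were also lower. EPCAM averaged 343 against 323 CPM and KRT19 243 against 209 CPM, so the lower sum did not hold for every marker. Of the endothelial markers EMCN was at 0 in every library, and of the platelet markers GP9 and TREML1 were. The 7 fibroblast markers, of which 6 passed the filter and 0 were at 0 in every library, summed to between 80.3 and 86.5 CPM in the combination, 343 and 381 CPM for ipatasertib, 112 and 118 CPM for tazemetostat, and 549 and 576 CPM for DMSO. The platelet markers summed to between 11.3 and 15 CPM in the combination, 11.1 and 11.9 CPM for ipatasertib, 5.68 and 6.52 CPM for tazemetostat, and 8.86 and 9.53 CPM for DMSO. With ipatasertib COL1A1 averaged 204 CPM against 424 under DMSO, and COL3A1 13.7 against 31.6. DCN averaged 131 against 98.8 CPM and LUM 12.6 against 10.1 CPM, so the fibroblast markers did not move together. In the combination ITGB3 averaged 7.73 CPM against 2.17 under DMSO, while PF4, the only platelet marker that was lower, averaged 2.33 against 4.81. The monocyte, macrophage and leukocyte markers summed to 221 to 269 CPM in the combination and 289 to 301 CPM for ipatasertib. They summed to 279 to 318 CPM for tazemetostat and 366 to 420 CPM for DMSO. CD68 made up most of that, averaging 239, 278, 282 and 377 CPM in the same order. The part of these differences in the results was not tested.

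Against DMSO, 8 of the 10 genes passed the threshold in the combination (4 higher, 4 lower), where 71.0% of all genes passed, 36.5% higher and 34.5% lower. With ipatasertib 7 passed (3 higher, 4 lower), where 54.1% of all genes passed, 25.4% higher and 28.7% lower. That count was 4 without ipatasertib A, where the calls over all genes also fell, from 8040 to 7009. With tazemetostat 9 passed (3 higher, 6 lower), where 46.0% of all genes passed, 25.1% higher and 20.9% lower. Between treatments, 8 passed in the combination against ipatasertib (4 higher, 4 lower), beside 39.1% of all genes, 21.8% higher and 17.3% lower. In the combination against tazemetostat 7 passed (4 higher, 3 lower), beside 60.6%, 29.8% higher and 30.8% lower. In ipatasertib against tazemetostat 9 passed (3 higher, 6 lower), beside 56.3%, 24.6% higher and 31.7% lower. Since the members were chosen with these comparisons in view, nothing is read from those counts. The median log2 change of the 10 genes was -0.17 in the combination, -0.10 with ipatasertib and -0.27 with tazemetostat, beside 0.02, -0.01 and 0.02 over all genes tested, and it hides changes from -3.08 to 4.36. The comparisons against DMSO share the same 3 DMSO libraries.

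**Figure D1:**
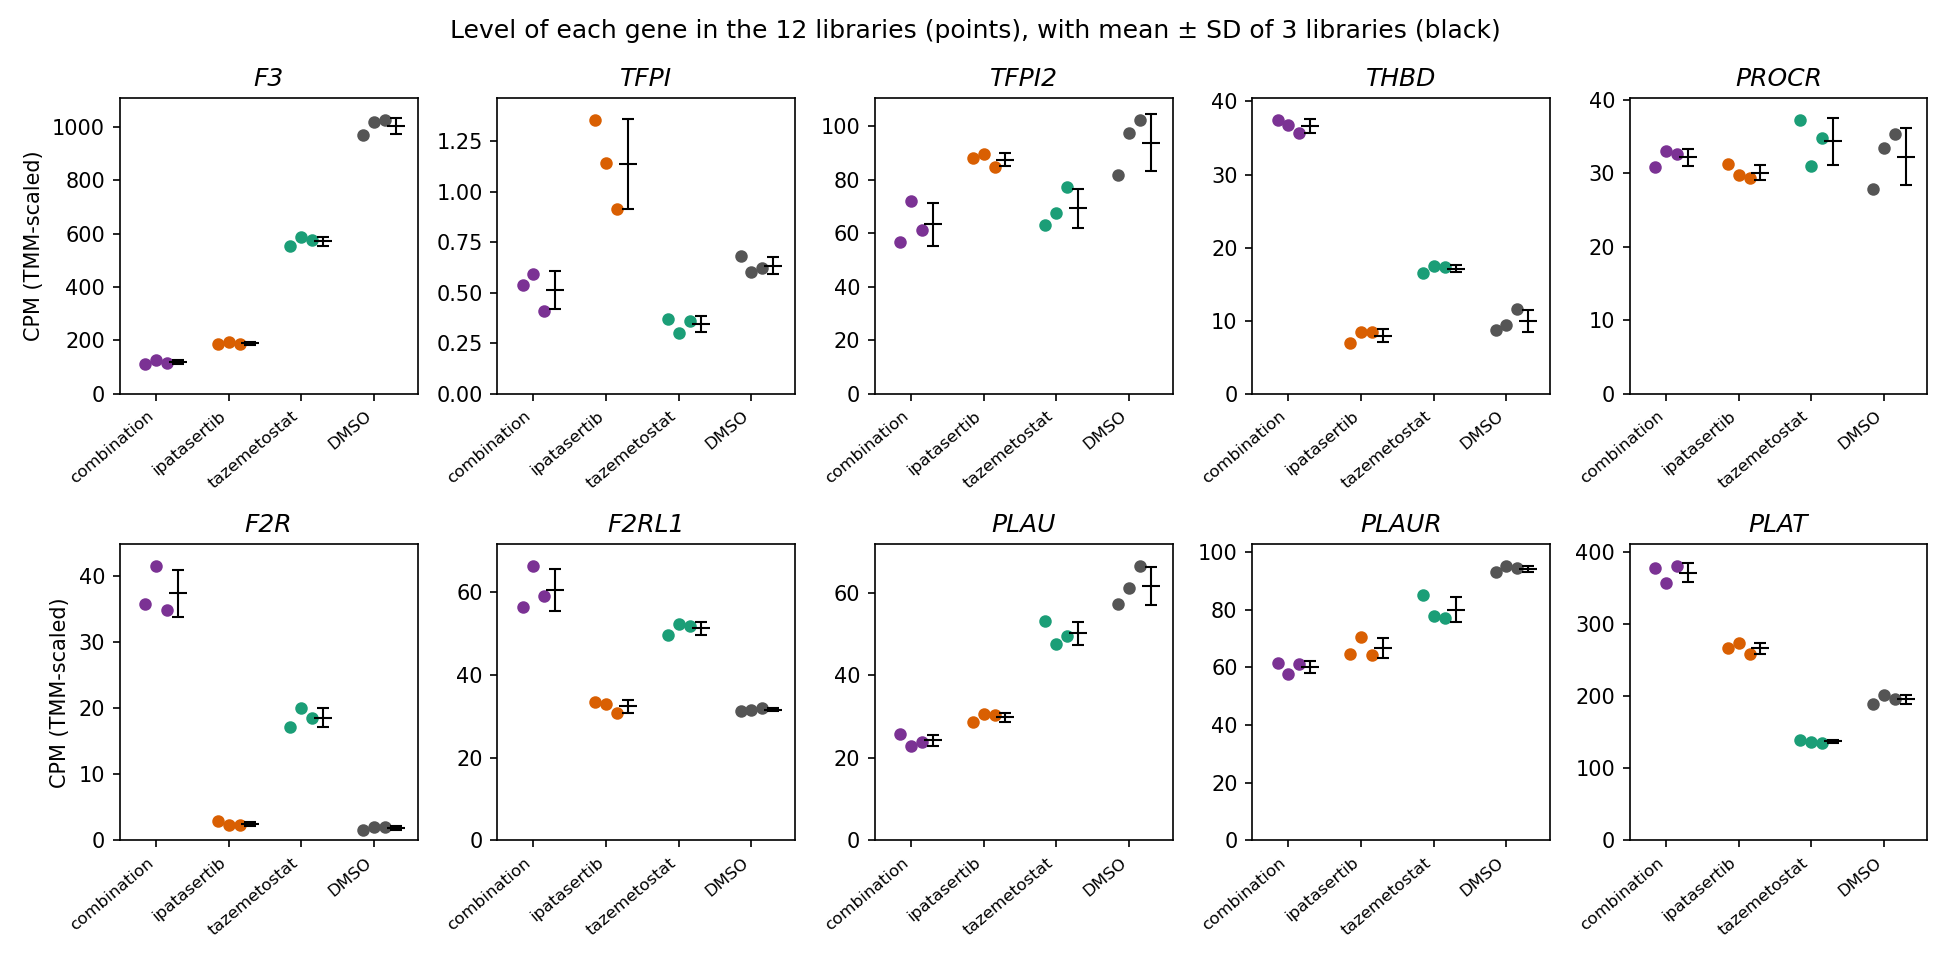
Each panel plots the CPM of 1 gene (vertical axis, linear from 0) in the 12 libraries, by treatment group, with the mean and SD of 3 libraries in black. F3 stepped down in the order DMSO, tazemetostat, ipatasertib, combination, whereas F2R lay at 34.9 to 41.5 CPM in the combination against 1.5 to 2.05 CPM under DMSO.

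F3 was the member that fell furthest. It stood at 114, 126 and 116 CPM in the combination, 186, 194 and 186 CPM with ipatasertib, 554, 587 and 575 CPM with tazemetostat and 967, 1016 and 1025 CPM under DMSO. None of the 4 groups overlapped another. The combination was 8.46-fold below DMSO (log2 change -3.08, SE 0.06, edgeR adjusted p = 1.69e-18), ipatasertib 5.31-fold below (-2.41, SE 0.06, edgeR adjusted p = 2.16e-16) and tazemetostat 1.75-fold below (-0.81, SE 0.05, edgeR adjusted p = 4.58e-10). F3 in the combination differed by -0.67 (SE 0.06) from ipatasertib alone and by -2.27 (SE 0.06) from tazemetostat alone. All 6 pairwise differences passed the threshold. The sum of the single changes was -3.22, and the combination departed from it by 0.14, with a 95% interval from -0.02 to 0.30 that includes 0.

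Upstream sequence is shown for F3, PLAUR and PLAU, which were lower in all 3 treatments, and for F2RL1, which was higher only where tazemetostat was present. The windows are the 250 bases before the RefSeq start, read 5′ to 3′ on the gene's strand, in GRCh38.p14, whereas the counts were made on hg19. Of the 10 genes, 7 were matched by symbol in the RefSeq promoter table. THBD, F2R and PLAT were not, so their upstream sequence was not searched. Capitals mark matches on either strand to motifs named for the factors that bind them. The AP-1 motif was searched as TGANTCA, and the motif of EGR1 as GCGNGGGCG. The GC box, searched as GGGCGG, can share bases with an EGR1 match. The TATA box was searched as TATAAA, the FOXO motif as GTAAACA and the TEAD motif as GGAATG. The F3 window is chr1:94541760-94542009 on the minus strand, the PLAUR window chr19:43670170-43670419 on the minus strand, the PLAU window chr10:73910882-73911131 on the plus strand and the F2RL1 window chr5:76818780-76819029 on the plus strand.
F3: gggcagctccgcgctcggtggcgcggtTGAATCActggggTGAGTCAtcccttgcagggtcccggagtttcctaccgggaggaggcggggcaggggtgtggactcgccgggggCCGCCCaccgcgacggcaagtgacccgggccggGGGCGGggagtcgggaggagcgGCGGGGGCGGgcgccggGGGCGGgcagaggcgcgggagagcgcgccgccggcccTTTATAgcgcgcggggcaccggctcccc
PLAUR: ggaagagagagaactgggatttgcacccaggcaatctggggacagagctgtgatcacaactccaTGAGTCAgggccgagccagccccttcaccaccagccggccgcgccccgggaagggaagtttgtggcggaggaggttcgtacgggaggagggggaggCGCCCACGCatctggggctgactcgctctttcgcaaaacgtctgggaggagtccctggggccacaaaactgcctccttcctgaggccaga
PLAU: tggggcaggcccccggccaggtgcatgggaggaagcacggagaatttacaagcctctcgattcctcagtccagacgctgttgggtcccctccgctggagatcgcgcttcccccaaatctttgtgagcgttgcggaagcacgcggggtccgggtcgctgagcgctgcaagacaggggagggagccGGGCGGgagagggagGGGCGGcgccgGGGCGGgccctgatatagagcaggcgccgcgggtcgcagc
F2RL1: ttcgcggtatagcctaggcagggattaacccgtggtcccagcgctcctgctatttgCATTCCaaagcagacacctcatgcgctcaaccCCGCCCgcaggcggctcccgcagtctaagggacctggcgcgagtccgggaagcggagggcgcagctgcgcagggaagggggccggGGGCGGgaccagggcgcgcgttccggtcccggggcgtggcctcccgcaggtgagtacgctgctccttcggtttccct

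The F3 window held 2 AP-1 matches, 4 GC box matches, 1 EGR1 match and 1 TATA box match, the last 28 bases before the start. PLAUR held 1 AP-1 and 1 EGR1 match, PLAU 3 GC box matches, and F2RL1 2 GC box matches and 1 TEAD match. A second PLAU start in the table, with its window not printed, held none of these motifs. Of the other windows not printed, TFPI2 held 1 AP-1, 1 EGR1 and 2 GC box matches. PROCR, which passed in no comparison, held 1 TATA box and 2 GC box matches, and TFPI held no match. Among all 35114 windows of that length, 6.57% held an AP-1 match, 42.6% a GC box, 8.41% an EGR1 match, 10.7% a TATA box, 2.98% a FOXO match and 11.9% a TEAD match. F3 had 34 CpG dinucleotides, F2RL1 26, the printed PLAU window 24 and PLAUR 13, where the median over all windows was 11. These are letter matches in a short window and not measured sites of binding.

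Of the Kunitz-type inhibitors, TFPI2 was lower in both groups given tazemetostat, and TFPI was higher with ipatasertib and lower with tazemetostat. TFPI, which inhibits factor Xa and the tissue factor complex, was near the lower limit of what the libraries could measure, at 13 to 54 counts per library. It stood at 0.537, 0.595 and 0.408 CPM in the combination, 1.35, 1.14 and 0.913 CPM with ipatasertib, 0.373, 0.302 and 0.361 CPM with tazemetostat and 0.680, 0.602 and 0.621 CPM under DMSO. Ipatasertib libraries lay above all DMSO libraries, and tazemetostat and combination libraries lay below them. TFPI was higher with ipatasertib (0.86, SE 0.24, edgeR adjusted p = 0.00546) and lower with tazemetostat (-0.87, SE 0.28, edgeR adjusted p = 0.0153), while the combination gave -0.33 (SE 0.28), which did not pass, with a 95% interval from -0.92 to 0.26. The ipatasertib call was lost without ipatasertib A (edgeR adjusted p = 0.0564), and the tazemetostat call without DMSO A (edgeR adjusted p = 0.0538). Between treatments, TFPI was lower in the combination than with ipatasertib (-1.20, SE 0.26, edgeR adjusted p = 0.00118). It was higher with ipatasertib than with tazemetostat (1.74, SE 0.26, edgeR adjusted p = 1.13e-05). The combination against tazemetostat, at 0.54 (SE 0.30), did not pass.

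TFPI2, a matrix-bound relative that inhibits plasmin and several other serine proteases, stood at 56.6, 72.1 and 61.3 CPM in the combination, 88.3, 89.5 and 84.7 CPM with ipatasertib, 63.2, 67.5 and 77.3 CPM with tazemetostat and 81.9, 97.4 and 102 CPM under DMSO. Libraries with tazemetostat, alone or combined, all lay below every library without it. The change was -0.57 (SE 0.09) in the combination, -0.10 (SE 0.09, 95% interval -0.29 to 0.09) with ipatasertib and -0.44 (SE 0.09) with tazemetostat. The combination and tazemetostat, neighbours in level, did not differ past the threshold, and nor did ipatasertib and DMSO. Without combination B the first of these differences was -0.19 and passed (edgeR adjusted p = 0.0434).

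Thrombomodulin and the protein C receptor, partners in the same reaction on endothelium, went separate ways. THBD had 37.5, 36.8 and 35.6 CPM in the combination, 7.0, 8.44 and 8.52 CPM with ipatasertib, 16.5, 17.5 and 17.4 CPM with tazemetostat and 8.77, 9.38 and 11.7 CPM under DMSO. The combination lay above all other groups, and the ipatasertib libraries lay just below the DMSO libraries. THBD rose 3.70-fold in the combination (1.89, SE 0.10, edgeR adjusted p = 1.09e-12) and by 0.79 (SE 0.10, edgeR adjusted p = 1.71e-06) with tazemetostat. With ipatasertib the change was -0.32 (SE 0.11, edgeR adjusted p = 0.0156), a call lost under scaling by total counts (edgeR adjusted p = 0.111), without ipatasertib A (0.134) and without DMSO C (0.125).

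Given on top of tazemetostat, ipatasertib raised THBD by 1.09 (SE 0.09), opposite in sign to its change when given alone. The single changes summed to 0.47, and the combination exceeded that sum by 1.42 (SE 0.14, edgeR adjusted p = 4.58e-06). That excess lay between 1.29 and 1.51 over the fits without 1 library and was 1.41 without both tazemetostat A and combination B. Of the 8 endothelial markers 4 passed the filter. PECAM1 averaged 4.27 CPM in the combination, 2.90 with ipatasertib, 1.21 with tazemetostat and 0.922 CPM under DMSO, and CDH5 had 0.959, 0.452, 0.261 and 0.204 CPM in the same order. ESAM averaged 1.02 CPM in the combination, 0.326 with ipatasertib, 1.04 with tazemetostat and 0.150 CPM under DMSO. ROBO4, which made up most of the summed level, ran the other way, at 12.01 CPM in the combination, 16.1 with ipatasertib, 19.5 with tazemetostat and 26.1 CPM under DMSO. The 8 markers summed to between 17.4 and 19.5 CPM in the combination, 19.6 and 20.7 CPM for ipatasertib, 20.7 and 23.9 CPM for tazemetostat, and 26.8 and 28.5 CPM for DMSO. Their part in the THBD result was not tested.

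PROCR, also used as a marker of mammary stem cells in mouse, averaged 32.2 ± 1.16 CPM in the combination, 30.1 ± 0.974 with ipatasertib, 34.3 ± 3.16 with tazemetostat and 32.2 ± 3.88 CPM under DMSO (SD, n = 3 each). The groups overlapped, and none of the 6 pairwise comparisons passed the threshold. Against DMSO the 95% interval of the log2 change ran from -0.18 to 0.18 in the combination, from -0.27 to 0.09 with ipatasertib and from -0.08 to 0.27 with tazemetostat. PROCR was the only member for which all 6 comparisons missed, although ipatasertib against tazemetostat passed without tazemetostat B (-0.22, edgeR adjusted p = 0.0446).

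The protease-activated receptors are G protein-coupled receptors that are switched on when a protease cuts their outer end. F2R encodes the thrombin receptor PAR1 and had 35.8, 41.5 and 34.9 CPM in the combination, 2.83, 2.28 and 2.30 CPM with ipatasertib, 17.1, 20.0 and 18.5 CPM with tazemetostat and 1.5, 2.05 and 1.99 CPM under DMSO. The 4 groups did not overlap, although the gap between ipatasertib and DMSO was small. F2R rose 20.5-fold in the combination (4.36, SE 0.12, edgeR adjusted p = 1.92e-16) and 10.1-fold with tazemetostat (3.34, SE 0.12, edgeR adjusted p = 7.86e-14). With ipatasertib it rose by 0.47 (SE 0.17, edgeR adjusted p = 0.0223), with only 61 to 68 counts in each DMSO library to compare with, and that call was lost without ipatasertib A (edgeR adjusted p = 0.156) and without DMSO A (edgeR adjusted p = 0.111). Ipatasertib on top of tazemetostat raised F2R 2.02-fold (1.01, SE 0.09). The combination exceeded the sum of the single changes by 0.55, with a 95% interval from 0.15 to 0.94, which did not pass after adjustment over all genes (edgeR adjusted p = 0.118).

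F2RL1 encodes PAR2, which trypsin-like proteases, matriptase and the tissue factor complex can cut and thrombin does not. It had 56.5, 66.4 and 59.1 CPM in the combination, 33.4, 33.1 and 30.7 CPM with ipatasertib, 49.6, 52.5 and 51.8 CPM with tazemetostat and 31.3, 31.6 and 32.0 CPM under DMSO. Groups with tazemetostat lay above groups without it, and ipatasertib overlapped DMSO. F2RL1 rose 1.92-fold in the combination (0.94, SE 0.07, edgeR adjusted p = 2.41e-10) and 1.62-fold with tazemetostat (0.70, SE 0.07, edgeR adjusted p = 8.3e-08), and changed by 0.04 with ipatasertib (95% interval -0.11 to 0.18). The combination was 0.24 (SE 0.07) above tazemetostat alone.

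F2R and F2RL1 are neighbours on chromosome 5, with F2RL2 (PAR3) and IQGAP2 on the other side of F2R in RefSeq's gene order. F2RL2 was too low to be tested, with 15 counts over the 3 combination libraries, 0 with ipatasertib, 19 with tazemetostat and 2 under DMSO. IQGAP2, a scaffold protein chosen here after its values were seen, had 186 counts over the combination libraries, 9 with ipatasertib, 79 with tazemetostat and 6 under DMSO. S100Z and CRHBP, the next genes beyond F2RL1, had 0 counts in every library, so not every neighbour was detected. F2RL3 (PAR4) had at most 1 count in any library.

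**Figure D2:**
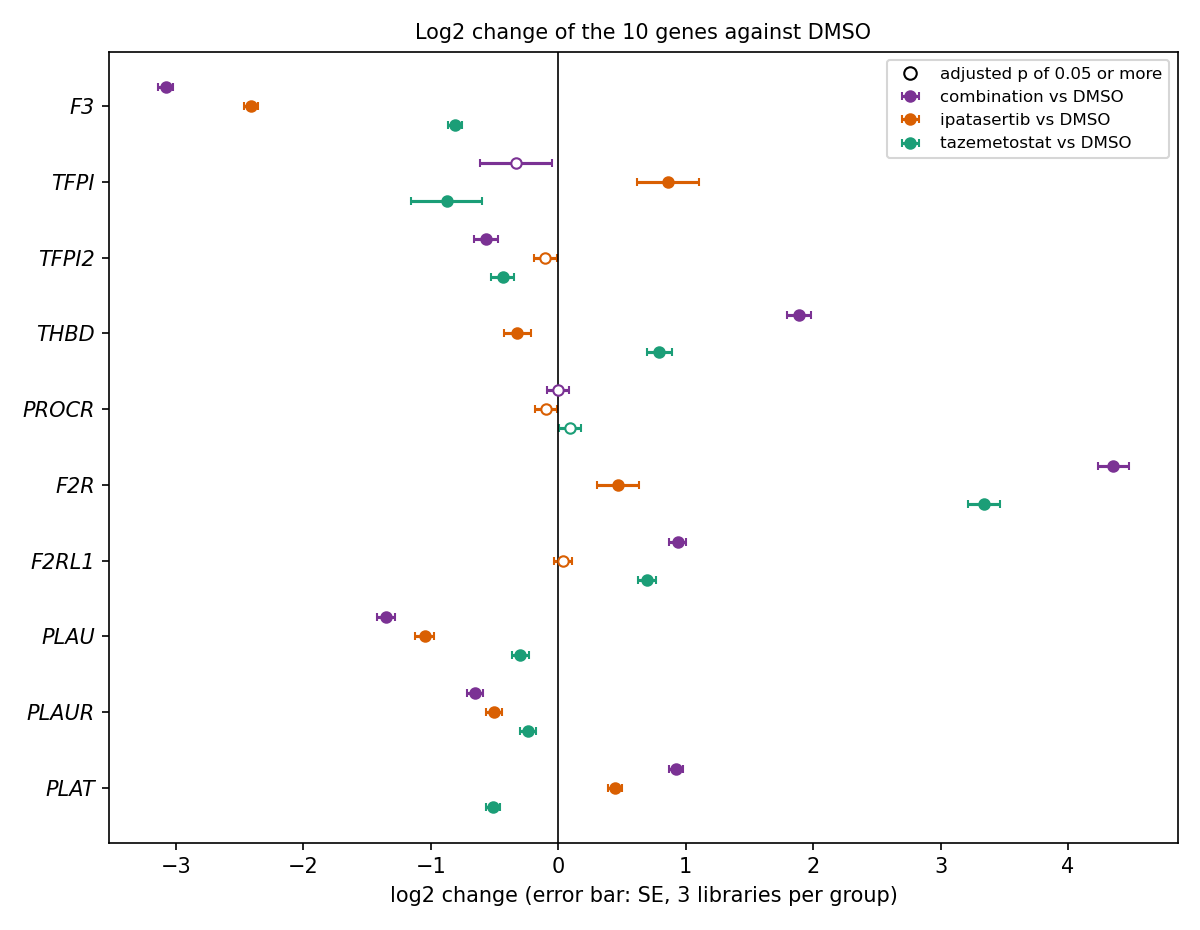
Points give the log2 change of each gene (horizontal axis) against DMSO in the combination, ipatasertib and tazemetostat, with bars of 1 SE and open points where the adjusted p was 0.05 or more. PLAT is the member whose single inhibitors passed in opposite directions beside TFPI and THBD, and PROCR has open points throughout.

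Urokinase and its receptor fell in all 3 treatments, whereas PLAT, the other activator, fell with tazemetostat alone and rose in the ipatasertib and combination groups. PLAU had 25.7, 23.0 and 23.9 CPM in the combination, 28.6, 30.7 and 30.3 CPM with ipatasertib, 53.3, 47.7 and 49.7 CPM with tazemetostat and 57.4, 61.2 and 66.5 CPM under DMSO. The groups did not overlap and all 6 pairwise differences passed. PLAU was 2.55-fold lower in the combination (-1.35, SE 0.07, edgeR adjusted p = 3.14e-12), 2.07-fold lower with ipatasertib (-1.05, SE 0.07, edgeR adjusted p = 4.8e-10) and 1.23-fold lower with tazemetostat (-0.30, SE 0.07, edgeR adjusted p = 0.00175). C10orf55 overlaps PLAU in RefSeq and had 13 to 60 counts per library where PLAU had 617 to 2473. RefSeq also lists overlapping loci for TFPI (CALCRL-AS1), PROCR (MMP24-AS1-EDEM2 and RNA5SP483) and PLAUR (RN7SL368P and LOC124904724), with counts not given here. The strand setting of the counting is not given in the sources used here, so reads of these overlaps cannot be told apart.

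PLAUR, the lipid-anchored urokinase receptor, had 61.4, 57.6 and 61.1 CPM in the combination, 64.8, 70.7 and 64.4 CPM with ipatasertib, 85.1, 77.9 and 77.2 CPM with tazemetostat and 93.1, 95.2 and 94.7 CPM under DMSO. Every treated library lay below every DMSO library. The change was -0.65 (SE 0.06) in the combination, -0.50 (SE 0.06) with ipatasertib and -0.24 (SE 0.06) with tazemetostat. The combination and ipatasertib were neighbours whose difference of -0.15 (SE 0.06) missed the threshold (edgeR adjusted p = 0.0617) and passed it under 8 alternatives. Departures of the combination from the sum of single changes did not pass for PLAU or PLAUR, at -0.01 (95% interval -0.22 to 0.21) and 0.09 (95% interval -0.09 to 0.27).

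PLAT, whose product dissolves fibrin clots in blood, had 377, 356 and 380 CPM in the combination, 266, 273 and 258 CPM with ipatasertib, 140, 136 and 135 CPM with tazemetostat and 189, 201 and 196 CPM under DMSO. The groups were fully separate, with tazemetostat at the bottom and the combination at the top. PLAT was higher in the combination (0.93, SE 0.05, edgeR adjusted p = 7.03e-12) and with ipatasertib (0.44, SE 0.05, edgeR adjusted p = 7.39e-07), and lower with tazemetostat (-0.51, SE 0.05, edgeR adjusted p = 2.11e-07). PLAT was thus lower with tazemetostat alone than under DMSO, yet 0.48 (SE 0.05) higher in the combination than with ipatasertib alone. The single changes summed to -0.07 and the combination exceeded that by 0.99 (SE 0.07, edgeR adjusted p = 4.73e-07), between 0.98 and 1.04 without any 1 library.

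**Figure D3:**
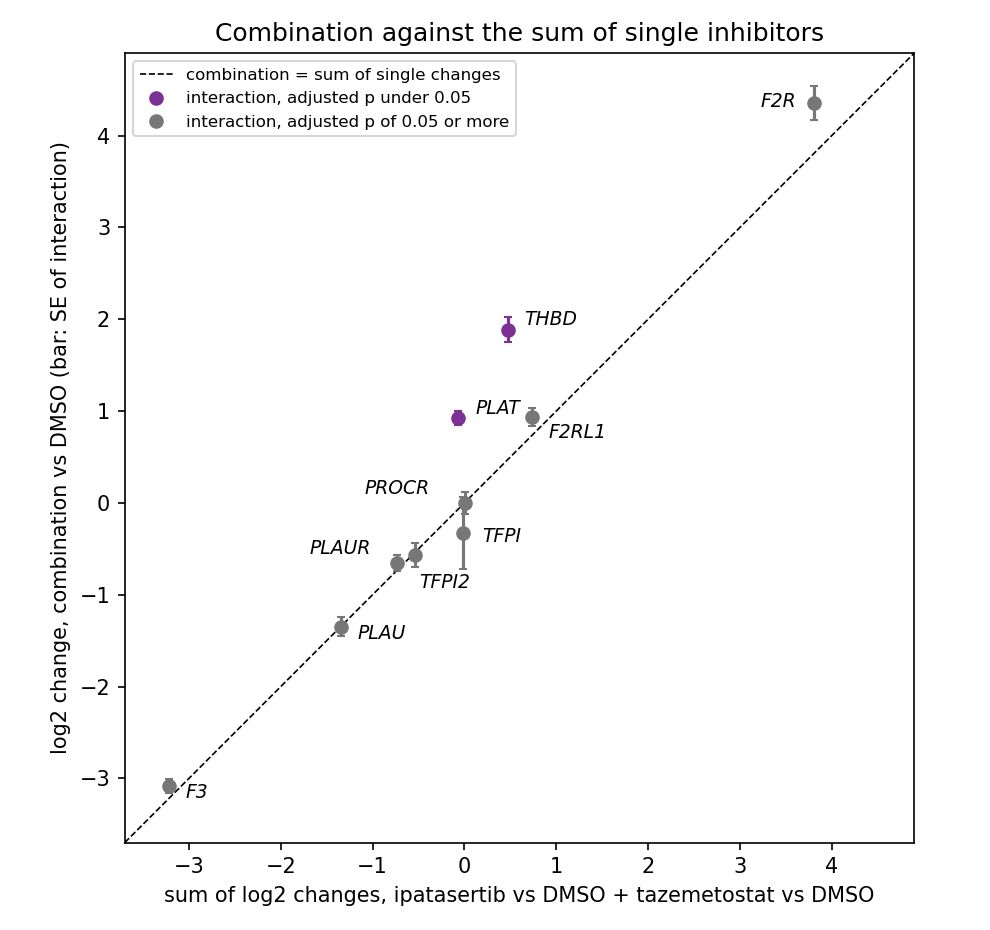
Each point is 1 gene, with the sum of the log2 changes of ipatasertib and tazemetostat on the horizontal axis and the log2 change of the combination on the vertical axis, both against DMSO, and a bar of 1 SE of the interaction. THBD and PLAT lie above the dashed line of equality by 1.42 and 0.99, and the other 8 did not pass the test of the departure.

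THBD and PLAT were the 2 of 10 members whose departure from the sum of single changes passed the threshold, both upward, where 3.62% of all genes tested passed, 1.87% higher and 1.75% lower. The departures of the other 8 lay between -0.32 for TFPI and 0.55 for F2R. That count over all genes was unsteady: it was 539 in all 12 libraries and 2443 without combination B, 1046 without tazemetostat A and 243 without ipatasertib A. THBD and PLAT passed in every one of those fits.

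Ratios of raw counts within a library do not depend on the scaling between libraries, and the pairs were chosen after the values were seen. PLAT to PLAU counts stood at 14.7, 15.5 and 15.9 in the combination, 9.31, 8.90 and 8.53 with ipatasertib, 2.62, 2.86 and 2.73 with tazemetostat and 3.29, 3.29 and 2.95 under DMSO. F3 to THBD counts were 3.04, 3.43 and 3.25 in the combination, 26.6, 23.0 and 21.8 with ipatasertib, 33.5, 33.6 and 33.0 with tazemetostat and 110, 108 and 87.8 under DMSO. F2R to F2RL1 counts averaged 0.616 ± 0.0231 in the combination, 0.0763 ± 0.00797 with ipatasertib, 0.360 ± 0.0185 with tazemetostat and 0.0583 ± 0.00901 under DMSO (SD, n = 3 each). The ratios describe change between groups and, because gene lengths differ, not which of the 2 transcripts was more abundant.

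**Figure D4:**
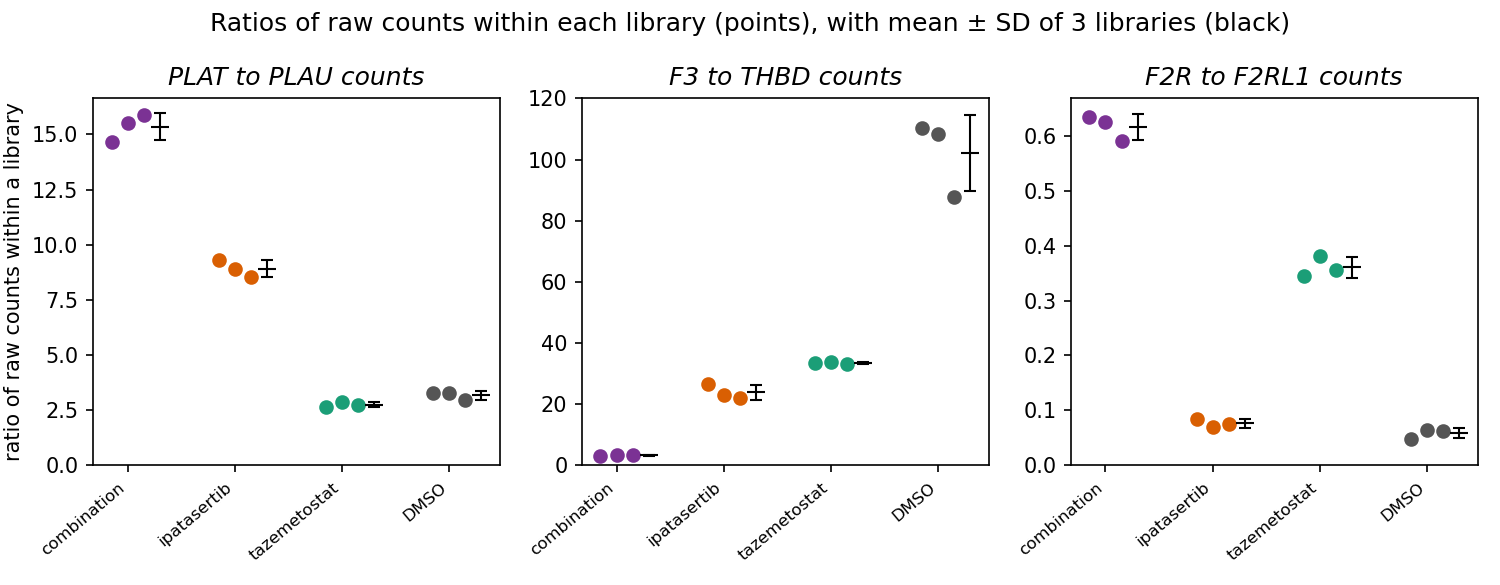
Points are ratios of raw counts of the 2 named genes within 1 library (vertical axes, linear from 0), by treatment group, with mean and SD in black. PLAT to PLAU reached 14.7 to 15.9 in the combination against 2.95 to 3.29 under DMSO, while F3 to THBD was 3.04 to 3.43 in the combination against 87.8 to 110 under DMSO.

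Of 57 other genes of clotting and plasminogen activation, 56 symbols were found and 33 passed the filter. In the combination 12 rose and 13 fell against DMSO, with ipatasertib 7 rose and 8 fell, and with tazemetostat 7 rose and 9 fell. Those that passed made up 75.8% of the 33 in the combination, 45.5% with ipatasertib and 48.5% with tazemetostat, beside 71.0%, 54.1% and 46.0% of all genes tested, so nothing particular to the list is read from them. Under scaling by total counts alone 15 of 25 that passed were higher in the combination (60%), 10 of 17 with ipatasertib (58.8%) and 8 of 14 with tazemetostat (57.1%). Of all genes that passed under that scaling, 62.6%, 63.1% and 69.6% were higher in the same order. The median change of the 33 was -0.05, -0.03 and -0.09 for the combination, ipatasertib and tazemetostat. Of 16 clotting factors, 3 passed the filter (F5, F8 and F12).

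SERPINB2, a serpin that inhibits urokinase, averaged 8.29 ± 0.892 CPM in the combination, 11.1 ± 0.563 with ipatasertib, 35.3 ± 1.61 with tazemetostat and 39.6 ± 0.95 CPM under DMSO (SD, n = 3 each), a change of -2.26 (SE 0.08) in the combination and -1.83 (SE 0.08) with ipatasertib, both past the threshold. Its change of -0.17 (SE 0.07) with tazemetostat did not pass.

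SERPINE2, protease nexin 1, which inhibits thrombin, urokinase and other proteases, went the other way. It averaged 1296 ± 162 CPM in the combination, 490 ± 5.82 with ipatasertib, 384 ± 27.8 with tazemetostat and 203 ± 21.6 CPM under DMSO (SD, n = 3 each). The rise was 2.67 (SE 0.09) in the combination, 1.27 (SE 0.08) with ipatasertib and 0.92 (SE 0.08) with tazemetostat. PROS1, the cofactor of activated protein C, rose in all 3 treatments, by 1.80 (SE 0.19) in the combination, 0.96 (SE 0.20) with ipatasertib and 1.02 (SE 0.19) with tazemetostat. F8, the cofactor of factor IX, rose by 1.26 (SE 0.08), 1.0 (SE 0.08) and 0.56 (SE 0.08) in the same order.

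The plasminogen receptor pair moved by small amounts. ANXA2 averaged 505 ± 38.3 CPM in the combination, 542 ± 34.7 with ipatasertib, 518 ± 12.7 with tazemetostat and 564 ± 15.3 CPM under DMSO, and S100A10, its partner, 273 ± 0.570, 294 ± 15.004, 304 ± 20.6 and 301 ± 4.62 CPM (SD, n = 3 each). Of the comparisons against DMSO, both passed in the combination and not in either single treatment, at -0.16 (SE 0.06) and -0.14 (SE 0.06). MMP14, a membrane metalloproteinase, changed by -0.98 (SE 0.09) in the combination, -0.23 (SE 0.08) with ipatasertib and -1.19 (SE 0.09) with tazemetostat.

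Among surface serine proteases, ST14, the matriptase that cuts PAR2 and pro-urokinase, was lower in the combination (-0.43, SE 0.07) and with ipatasertib (-0.45, SE 0.07), and changed by -0.09 (SE 0.07) with tazemetostat, which did not pass. TMPRSS4 averaged 7.35 ± 0.438 CPM in the combination, 0.996 ± 0.110 with ipatasertib, 3.82 ± 0.0861 with tazemetostat and 0.986 ± 0.185 CPM under DMSO (SD, n = 3 each), a rise of 2.89 (SE 0.14) in the combination and 1.95 (SE 0.15) with tazemetostat. F5, PROC, SERPIND1 and HRG also passed in at least 1 treatment and rest on few reads. F5 had 34 counts over the combination libraries, 4 with ipatasertib, 44 with tazemetostat and 4 under DMSO. PROC had 45, 44, 16 and 16 in the same order, SERPIND1 36, 9, 12 and 9, and HRG 39, 13, 39 and 17. Departure from the sum of single changes passed for 5 of the 33 genes, all upward with all libraries, beside 3.62% of all genes tested. TMPRSS4 at 0.91 (SE 0.23) and SERPINE2 at 0.48 (SE 0.12) were among them. The count was unsteady, at 2 without ipatasertib A or 9 without combination B. It was 14, of which 10 were upward, without both tazemetostat A and combination B, and 7, of which 6 were upward, with no filter on low counts.

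**Figure D5:**
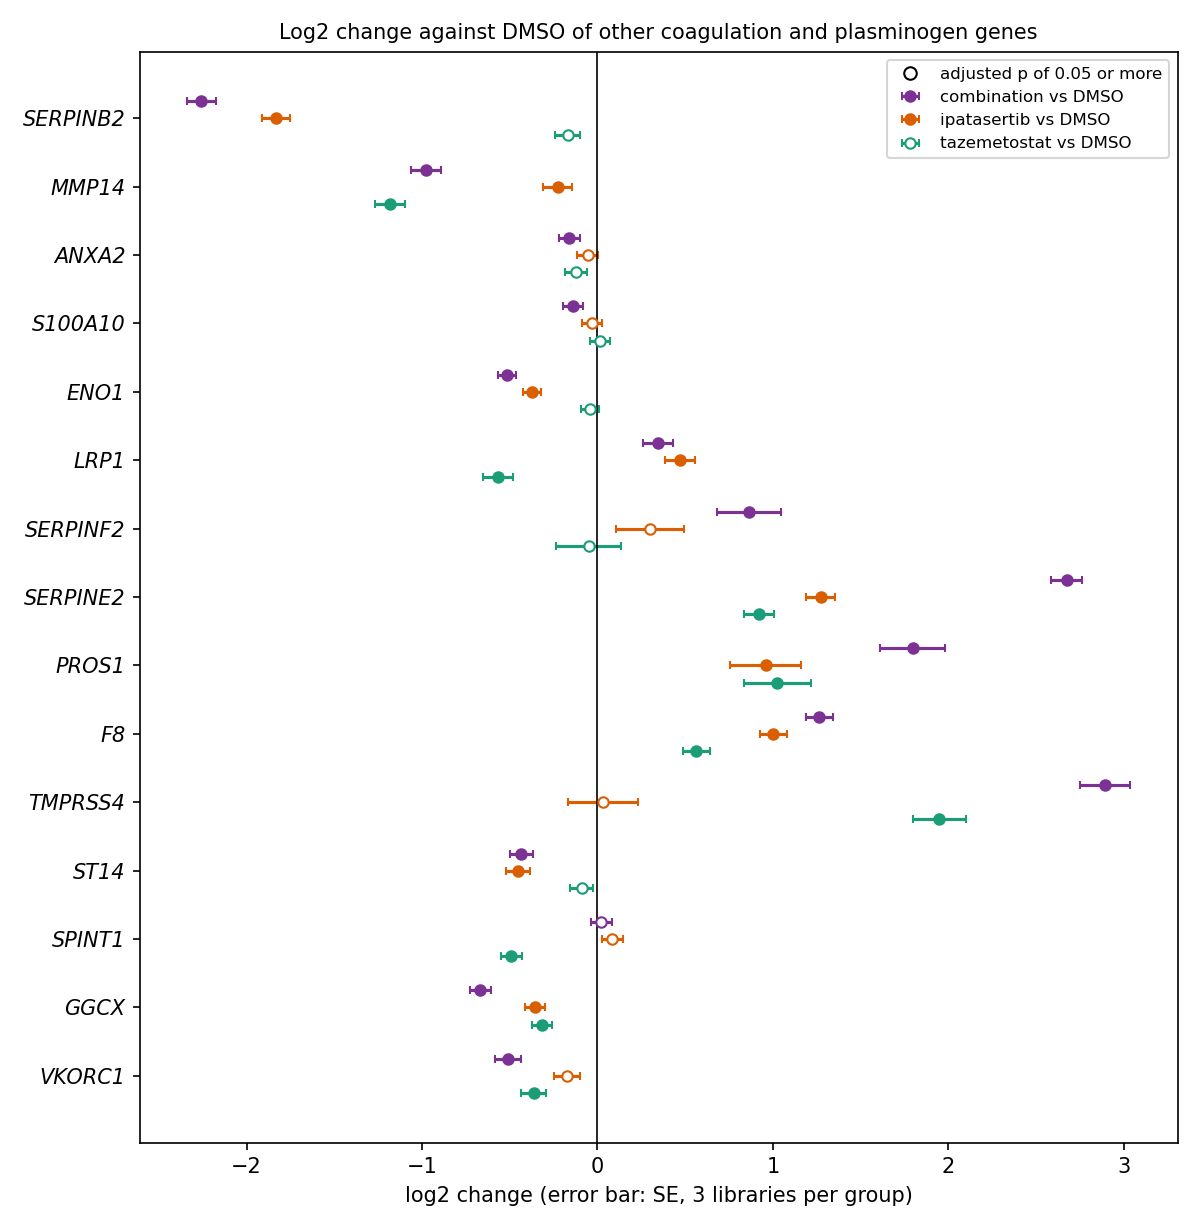
Points give the log2 change against DMSO (horizontal axis) of other coagulation and plasminogen genes in the combination, ipatasertib and tazemetostat, with bars of 1 SE and open points where the adjusted p was 0.05 or more. SERPINE2 rose in all 3 treatments, and SERPINB2 passed only where ipatasertib was present.

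The genes with a pattern nearest to F3 and F2R, the members that moved most, were found by the root mean square difference of centred log2 CPM over the 12 libraries. KRT17, ABCC9 and CPA4 were nearest to F3, at 0.22, 0.26 and 0.28. On the scale of log2(CPM + 1) KRT17 and CPA4 remained, and KRT14, at 0.24, took the place of ABCC9. KRT17, a basal keratin with near-identical copies, averaged 96.1 CPM in the combination, 140 with ipatasertib, 474 with tazemetostat and 592 CPM under DMSO. PRUNE2, RRAGD and FHL1 were nearest to F2R, at 0.21, 0.30 and 0.30, and on the scale of log2(CPM + 1) 1 of those 3, FHL1, remained among the nearest. FHL1 averaged 17.9 CPM in the combination, 1.79 with ipatasertib, 11.1 with tazemetostat and 1.24 CPM under DMSO.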

How the data were processed

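Polyadenylated RNA of 12 SUM149PT libraries was sequenced after Kapa Hyper Prep library preparation, per the labels' protocols. The authors deposited raw read counts per gene symbol for each library. The build was hg19 and the tools named are STAR, HTSeq, SAMtools and DESeq2, per the submitters' processing notes. Versions, annotation and strandedness are not given there or in the labels. The 5 summary lines that name no gene held 29.8% to 38.6% of reads and were left out. A deposited table of normalised values was not used here.

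Counts were analysed in R 4.3.3 with edgeR 4.0.16 (filterByExpr, minimum count 10, TMM, quasi-likelihood F-test, 1 coefficient per group, no block), and with DESeq2 1.42.0 as an alternative. There were 7 contrasts, the 6 pairs of groups and the interaction. Each SE was taken as the absolute log2 change over the root of its F statistic. The 3 counts that a 0 allows came to 0.0600 to 0.134 CPM, for counting error only. Members and gene lists were chosen with earlier results of these data known. The text names all 10 members, pathway genes past the threshold with a log2 change of at least 1 against DMSO, and those named whatever their values (SERPINB2, SERPINE2, ANXA2, S100A10, F2RL2, F2RL3 and ST14). A gene that these rules also name is not reported here. Alternatives were RLE and total-count scaling, no filter, DESeq2, a replicate block, fits of only the groups compared, and leaving out libraries.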

Additional observations from a re-analysis of the deposited data

Results flagged for a closer look

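The effect of ipatasertib on 2 of the members differed between cells with and without tazemetostat, by the test of the interaction. Of all 14874 genes tested, 539 (3.62%) also passed that test. For THBD the combination exceeded the sum of the single log2 changes by 1.42 (SE 0.14, edgeR adjusted p = 4.58e-06), where the libraries spanned 35.6 to 37.5 CPM in the combination, 7.0 to 8.52 CPM for ipatasertib, 16.5 to 17.5 CPM for tazemetostat, and 8.77 to 11.7 CPM for DMSO. For PLAT the excess was 0.99 (SE 0.07, edgeR adjusted p = 4.73e-07), where they spanned 356 to 380 CPM in the combination, 258 to 273 CPM for ipatasertib, 135 to 140 CPM for tazemetostat, and 189 to 201 CPM for DMSO. Both were among the members chosen with these values known. Groups of 3 libraries are too small to test for single outlying libraries.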

How the results depend on the processing

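Calls of members kept their direction and side of the threshold in most alternatives. Leaving out 1 library moved the members called with ipatasertib against DMSO between 4 and 7, where 4 came without ipatasertib A. Calls over all genes moved between 7009 and 8749, also lowest without ipatasertib A, beside 8040 with all libraries. Genes called for the interaction, 539 with all libraries, were 905 with no filter, 928 with DESeq2, 4766 without tazemetostat A and combination B, and 243 to 2443 without 1 library. Pathway genes called for it, 5 with all libraries, were 14 without tazemetostat A and combination B and 2 to 9 without 1 library. The cause was not tested. Scaling by total counts alone moved the share of passing genes that were higher to 62.6% in the combination, 63.1% with ipatasertib and 69.6% with tazemetostat against DMSO, and 27.8% for the interaction, beside 51.4%, 46.9%, 54.6% and 51.6%.

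Signs turned only for log2 changes that did not pass. Against DMSO with ipatasertib, TFPI2 became 0.017 and PROCR 0.023 under total counts. In the combination against DMSO, PROCR became -0.0052 under RLE, -0.015 with no filter, -0.0058 with DESeq2, -0.00386 with only the groups compared, and -0.083 to 0.070 without 1 library. With tazemetostat it was -0.022 to 0.17 without 1 library. For the interaction, PROCR became -0.0064 under RLE, -0.051 under total counts, -0.038 with no filter, -0.0056 with DESeq2, -0.00322 with the replicate block and -0.073 to 0.11 without 1 library, TFPI2 ran from -0.12 to 0.067 without 1 library, and PLAU was -0.063 to 0.059 without 1 library and 0.090 without tazemetostat A and combination B.

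Replicate letters did not pair the libraries throughout. Deviations of same-letter libraries correlated between -0.07 and 0.30, over 0.1 in 2 of 18 pairs, and those of other-letter libraries between -0.34 and 0.18. Those 2 pairs joined tazemetostat with the combination, at 0.30 for letter A and 0.21 for letter B. Of the 12 libraries, 3 matched best with their own letter. The replicate block gave 10698 genes in the combination, 8250 with ipatasertib and 7123 with tazemetostat against DMSO, beside 10565, 8040 and 6849 without it, and changed no member's call. Depth limits TFPI most, at 13 to 54 counts per library.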
